A study of Mus musculus with 3 samples.

Results

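Trithorax group (TrxG) complexes are protein complexes that methylate histone 3 at lysine 4 (H3K4), and 9 genes of this system were described at the level of their own chromatin in cytokine treated mouse islets. Wdr5, Ash2l, Rbbp5 and Dpy30 encode the core subunits shared by these complexes. Men1, Paxip1 and Ncoa6 encode subunits of particular complexes. Setd7 encodes an H3K4 monomethyltransferase that acts outside the complexes, and Kdm6b (also called Jmjd3) encodes a demethylase of trimethylated histone 3 lysine 27 (H3K27me3). The genes were chosen by name, with earlier results of these data known, from 22350 protein-coding genes on chromosomes 1 to 19 and X of GENCODE M1 on the mm9 build. A monomethylated H3K4 (H3K4me1) enriched region was counted at a gene when it overlapped the gene or had its nearest edge within 20 kb of any annotated transcription start site (TSS). By this rule 34 of 65709 enriched regions belonged to the 9 genes, and no region was shared by 2 of them.

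In a TrxG complex a SET domain protein of the Mll or Setd1 family carries the catalytic activity, and the core subunits hold it in an active form on the nucleosome. Monomethylated H3K4 is typical of enhancers and of the sequence beside active promoters, whereas the nucleosomes right at an active TSS usually carry trimethylated H3K4. Polycomb complexes place H3K27me3, and the demethylases Kdm6a (Utx) and Kdm6b remove it.

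The library came from pancreatic islets of CD1 mice, aged 8 to 12 weeks, that recovered for 4 to 6 hours after isolation. The islets were then kept in RPMI for 4 days with IL-1β at 0.25 ng/ml, TNFα at 0.16 ng/ml and IFNγ at 1.6 ng/ml, and chromatin was recovered with an Abcam antibody to H3K4me1. The study's methods call the mice ICR, give a narrower age range and pool the DNA of several ChIP experiments into 1 library, so there is no replicate, no error between samples and no test. Neither untreated islets nor RNA levels are part of these values, which therefore say nothing of what the cytokines changed. Islets hold several endocrine cell types, vessels and some leukocytes, and a region does not tell which of these cells carried the mark. As a check of the tissue, a region covered or lay within 2 kb of a TSS of 7 of 7 β-cell markers, 0 of 3 acinar markers, 0 of 4 leukocyte markers and 2 of 3 endothelial markers. The check is coarse, since only 41.2% of protein-coding genes had no region within 2 kb of the first TSS. By the 20 kb rule, 2 of the 3 acinar and 3 of the 4 leukocyte markers had a region, beside 76.4% of protein-coding genes. The deposited list gives positions only, on a grid of 200 bp, so an edge is known to 200 bp at best and the depth behind a region is unknown.

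All 9 genes had at least 1 region, as did 76.4% of protein-coding genes. The first TSS, which is the most upstream one annotated on the strand of the gene, was covered by a region at 4 of the 9 (Rbbp5, Men1, Paxip1 and Kdm6b), against 31.1% of protein-coding genes. The count is 3 if Kdm6b, whose annotated first TSS is in doubt (described with that gene), is set aside. At 3 genes (Wdr5, Ncoa6 and Setd7) the first TSS lay in an uncovered gap with a region edge within 2 kb on both sides. This flanked arrangement was found at 9.90% of protein-coding genes. Ash2l had a region within 2 kb of its first TSS on the upstream side alone, and 17.7% of protein-coding genes were flanked on 1 side. The first TSS of Dpy30 had no region within 2 kb, as at 41.2% of protein-coding genes. With every annotated TSS counted, 5 of the 9 genes had at least 1 covered TSS, the fifth being Ncoa6 at an internal site, against 39.1% of protein-coding genes. The flanked class rested on small distances, since the first TSS of Wdr5 was covered when regions up to 1000 bp apart were merged, that of Ncoa6 was covered when each edge was moved out by 200 bp, and Setd7 lost its upstream flank without regions narrower than 1000 bp. With a flank of 1 kb in place of 2 kb, Ncoa6 and Setd7 were flanked on the upstream side alone and Wdr5 was the 1 gene left in the class. With 9 genes and 1 library these counts are a description, and no difference from the background was tested.

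The 9 genes had 39 annotated TSS in all, of which 12 were covered, 12 were flanked on both sides, 7 were flanked on 1 side and 8 had no region within 2 kb. Over the 70018 annotated TSS of protein-coding genes these shares were 31.5% covered, 10.3% flanked on both sides, 18.5% flanked on 1 side and 39.8% with no region within 2 kb. Single genes carried the totals of the 9, since 8 of the covered TSS lay under 1 region at Men1 and 6 of the flanked ones in 1 gap at Ash2l. Of the 34 regions, 20 overlapped their gene and 14 lay outside it. Coding sequence was overlapped by 11 regions, and 7 lay in introns alone. A TSS of the own gene was covered by 5 regions. The TSS of another gene (Kcnu1, Star, 6030442K20Rik, Map4k2, Trp53inp2 or 1700064E03Rik) was covered by 6, among them the Rbbp5 region, which covered both. The own gene held the closest TSS for 21 of the 34 regions. These counts describe how the 34 regions lie, and the same counts were not made over all regions.

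**Figure D1:**
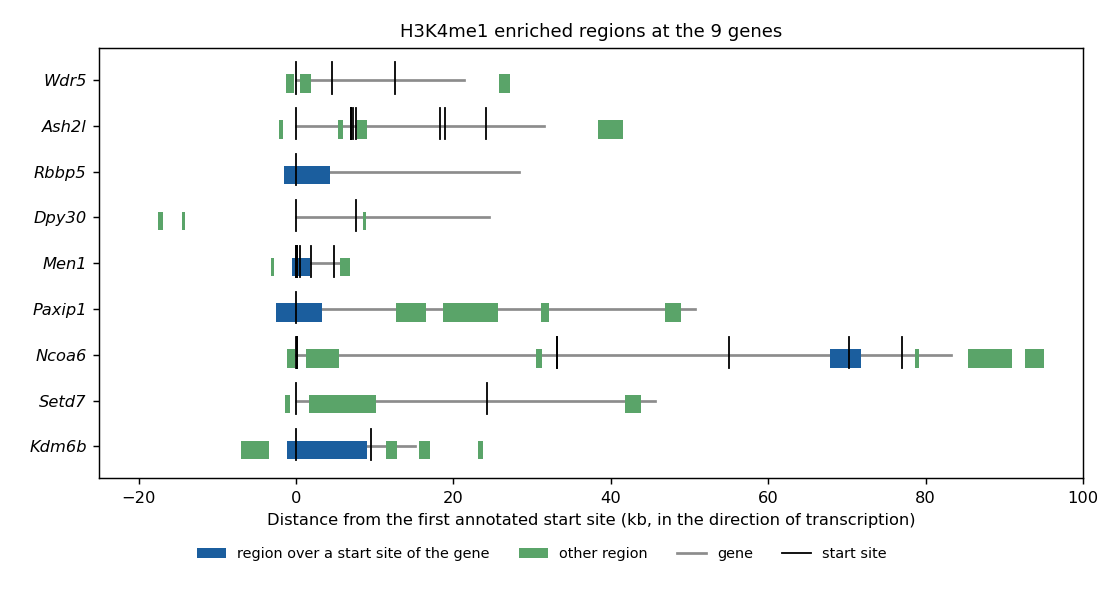
Enriched regions at the 9 genes, drawn along the direction of transcription with 0 at the first annotated TSS (x axis, kb). Grey lines are genes, black ticks are TSS, blue boxes are regions over a TSS of the gene and green boxes are other regions. Rbbp5 has 1 region, at its TSS, while Paxip1 has 5 regions along the gene and Ncoa6 has regions from its first TSS to beyond its last exon.

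Wdr5, the WD40 repeat protein that binds the SET domain subunits and anchors the core, had a narrow uncovered promoter between 2 regions. The gene (ENSMUSG00000026917.9) occupies chr2:27370677-27392055, plus strand, and had 3 regions. The first, at chr2:27369401-27370400, was 1000 bp wide and ended 277 bp upstream of the first TSS. The second, at chr2:27371201-27372600, was 1400 bp wide, began 524 bp downstream of that TSS and lay in an intron. The uncovered gap between them was 800 bp wide, the narrowest of the flanked first TSS among the 9 genes. The last region, of 1400 bp, at chr2:27396401-27397800, lay beyond the 3′ end in an intron of the lincRNA Gm13421. The TSS at 27375281 and 27383292 inside the gene had no region within 2 kb. The sequence in the gap was rich in GC and in CpG dinucleotides. In the 150 bases before the first TSS and the first 20 bases of the transcript (chr2:27370527-27370696, plus strand), the capitals mark both matches to the GC box GGGCGG, read here on the opposite strand. It is shown because no mark was called over it while both sides were marked.
Wdr5: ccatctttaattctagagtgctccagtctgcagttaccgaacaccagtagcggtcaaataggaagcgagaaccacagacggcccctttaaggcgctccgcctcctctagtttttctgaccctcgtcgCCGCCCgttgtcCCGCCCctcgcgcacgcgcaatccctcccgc

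Ash2l, the subunit that joins Rbbp5 to activate the methyltransferase, showed the same arrangement at an internal group of TSS and not at its first one. The gene (ENSMUSG00000031575.10) occupies chr8:26926663-26958166, minus strand, and has 10 annotated TSS, none of them covered. The first TSS, at 26958166, lay 1635 bp from the region chr8:26959801-26960400, which is 600 bp wide and covers the TSS of the neighbouring gene Kcnu1, a potassium channel gene. The nearest region downstream of this TSS was 5366 bp away. A group of 6 TSS between 26950549 and 26951251 lay in an uncovered gap of 1800 bp. The gap was bounded by an intronic region of 600 bp at chr8:26952201-26952800 and by a region of 1200 bp at chr8:26949201-26950400 over coding sequence, UTR and intron. The fourth region, chr8:26916601-26919800, was 3200 bp wide and covered the TSS of Star, which encodes a cholesterol carrier of steroid synthesis. The remaining 3 TSS, of noncoding transcripts farther into the gene, had no region within 2 kb. The window from 150 bases before to 20 bases into the transcript at 26951251 (chr8:26951232-26951401, minus strand) is printed because this group of TSS was flanked and had more CpG than the first TSS.
Ash2l: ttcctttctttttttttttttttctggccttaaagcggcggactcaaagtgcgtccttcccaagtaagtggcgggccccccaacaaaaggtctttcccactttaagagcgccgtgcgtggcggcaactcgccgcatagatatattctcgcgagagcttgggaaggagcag

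The expected number of CpG in a sequence follows from its C and G content, and the ratio of the observed to the expected number was taken over 501 bp around each TSS. This ratio was 0.462 at the first TSS of Ash2l and 0.887 at 26951251, where the 501 bp held 43 CpG. The 150 bases before the internal TSS held no match to any of 5 promoter motifs searched (GC box, E-box, ETS core, CCAAT box and TATA box), and a match or its absence is a description of these letters only.

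Rbbp5, the core subunit that binds Ash2l and the nucleosome, had a single region and it covered its only TSS. The gene (ENSMUSG00000026439.8) occupies chr1:134373944-134402242, plus strand. The region, chr1:134372401-134378200, was 5800 bp wide and held 1543 bp before the TSS and 4256 bp after it, over coding sequence, UTR and intron. It also covered the TSS of the lincRNA 6030442K20Rik. No other part of the 28.3 kb gene was covered. The CpG ratio around the TSS was 0.900, so a promoter rich in CpG was marked across its TSS here and left out of the marked sequence at Wdr5. The window from 150 bases before the TSS to 20 bases into the transcript (chr1:134373794-134373963, plus strand) is printed for comparison with that of Wdr5. It held no match to the 5 motifs above.
Rbbp5: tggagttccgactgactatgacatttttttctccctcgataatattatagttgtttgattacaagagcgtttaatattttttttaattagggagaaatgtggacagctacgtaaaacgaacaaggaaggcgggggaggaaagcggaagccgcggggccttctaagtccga

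Dpy30, the small subunit that binds Ash2l, had the least marked sequence of the 9 genes. The gene (ENSMUSG00000024067.7) occupies chr17:74698814-74723284, minus strand, and its 3 regions held 1.4 kb in all. Those regions, chr17:74740201-74740800 in an intron of Spast, chr17:74737401-74737800 and chr17:74714401-74714800 in an intron of Dpy30, were 600, 400 and 400 bp wide. The region at 74737401 lay 527 bp from a TSS of Spast, which encodes the microtubule severing protein spastin. The first TSS of Dpy30, at 74723284, lay 14117 bp from the nearest region upstream and 8484 bp from the nearest downstream. The second, at 74715734, had the intronic region 934 bp downstream and nothing within 2 kb upstream. The annotation matters here, because the CpG ratio was 0.146 around the first GENCODE TSS. RefSeq gives this TSS too, as well as 3 near the second GENCODE site when matched by sequence to mm9. At the most upstream of these 3, 74715773, the ratio was 0.898. The window around that RefSeq site (chr17:74715754-74715923, minus strand) is printed because it is CpG-rich sequence at a TSS with a region on the downstream side alone.
Dpy30: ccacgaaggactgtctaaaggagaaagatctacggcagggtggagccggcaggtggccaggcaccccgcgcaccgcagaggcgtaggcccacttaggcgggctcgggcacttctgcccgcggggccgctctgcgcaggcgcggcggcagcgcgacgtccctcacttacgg

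With the regions as deposited and a flank of 2 kb, the first TSS of the core subunits was flanked at Wdr5, marked on 1 side at Ash2l, covered at Rbbp5 and without a region at Dpy30. These classes were not all stable, as Ash2l fell into that of Dpy30 with a flank of 1 kb or without regions narrower than 1000 bp, and Wdr5 into that of Rbbp5 when gaps of up to 1000 bp were merged. They also depend on the TSS chosen. The internal TSS group of Ash2l was flanked on both sides, and the second GENCODE TSS of Dpy30 had a region 934 bp downstream. The covered sequence of the 4 core genes ranged from 1.4 kb at Dpy30 to 5.8 kb at Rbbp5. None of the 4 reached the upper quartile of protein-coding genes, which was 9.4 kb.

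**Figure D2:**
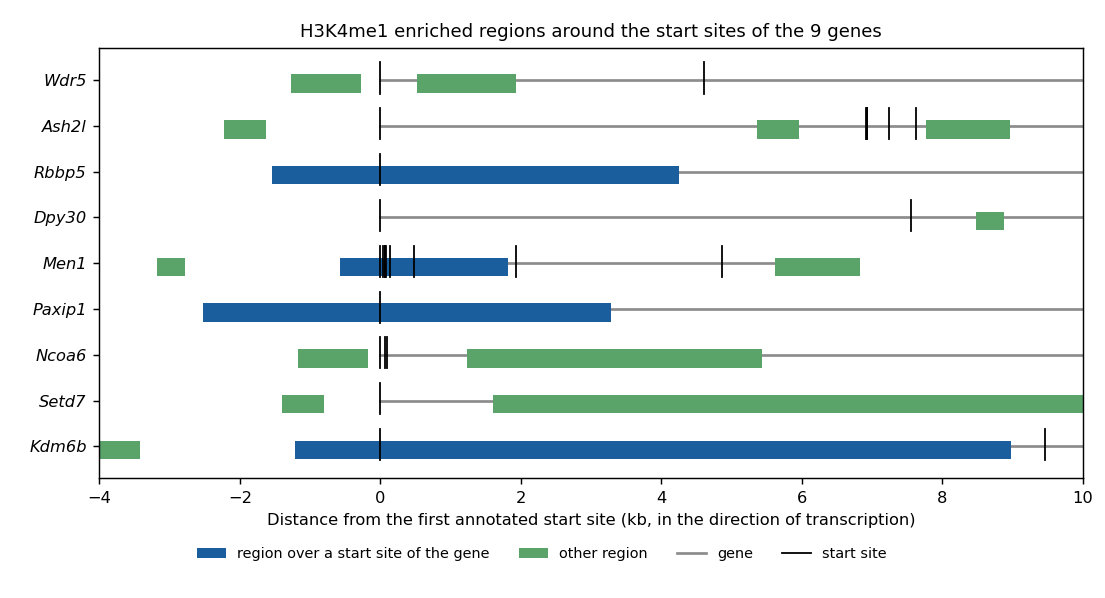
The same genes from 4 kb upstream to 10 kb downstream of the first annotated TSS (x axis, kb, in the direction of transcription), with blue boxes for regions over a TSS of the gene, green boxes for other regions and black ticks for TSS. The first TSS falls inside a region at Rbbp5, Men1, Paxip1 and Kdm6b and between 2 regions at Wdr5, Ncoa6 and Setd7, and the internal TSS group of Ash2l also falls between 2 regions.

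Men1, which encodes menin, the subunit that tethers the Mll1 and Mll2 complexes and whose loss causes endocrine tumours including those of islets, had most of its TSS under 1 region. The gene (ENSMUSG00000024947.10) is short, at 5.913 kb, and occupies chr19:6334979-6340891, plus strand. The region chr19:6334401-6336800 was 2400 bp wide and covered 8 of the 10 annotated TSS, those from 6334979 to 6335461. Its upstream edge was 578 bp, and its downstream edge 1821 bp, from the first TSS. The TSS at 6336910 lay 110 bp beyond its end. The region chr19:6340601-6341800 was 1200 bp wide and overlapped the 3′ UTR of Men1 and the TSS of Map4k2, a kinase gene. It began 754 bp downstream of the last Men1 TSS, at 6339847. The third region, chr19:6331801-6332200, was 400 bp wide and lay outside the gene, 2779 bp upstream. Although Men1 had 4 kb of covered sequence, 35.7% of the gene itself was covered because the gene is short.

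Paxip1, which encodes the BRCT domain protein PTIP of the Mll3 and Mll4 complexes, carried the most marked sequence of the 9 genes. The gene (ENSMUSG00000002221.7) occupies chr5:28067207-28117879, minus strand, and all 5 of its regions overlapped the gene, for 19.6 kb in all. The TSS was covered by chr5:28114601-28120400, of 5800 bp, which reached 2521 bp upstream and 3278 bp downstream. Inside the gene lay chr5:28101401-28105200 of 3800 bp and chr5:28092201-28099200 of 7000 bp. A width of at least 7000 bp was found for 4.59% of all regions. Farther on lay chr5:28085801-28086800 of 1000 bp and chr5:28069001-28071000 of 2000 bp, the last near the 3′ end of the gene. Each of the 5 regions overlapped coding sequence, and no TSS of another gene was closer to any of them than that of Paxip1. RefSeq places the TSS 211 bp farther upstream, which is also inside the first region.

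Ncoa6, a nuclear receptor coactivator subunit of the Mll3 and Mll4 complexes, had the most regions and a flanked promoter. The gene (ENSMUSG00000038369.7) occupies chr2:155216401-155299630, minus strand, and had 7 regions with 18.6 kb of covered sequence. The first TSS, at 155299630, and those at 155299560 and 155299542 lay in an uncovered gap of 1400 bp. The region upstream of it, chr2:155299801-155300800, was 1000 bp wide and ended 171 bp from the first TSS. The region downstream, chr2:155294201-155298400, was 4200 bp wide, lay in an intron and began 1230 bp from that TSS. The only covered TSS of Ncoa6 was that of a transcript annotated as a retained intron, at 155229297, inside chr2:155227801-155231800 of 4000 bp. The intronic regions chr2:155268401-155269200 of 800 bp and chr2:155220401-155221000 of 600 bp lay 1880 and 1562 bp from the nearest internal TSS. The 2 remaining regions, chr2:155208601-155214200 of 5600 bp and chr2:155204601-155207000 of 2400 bp, lay beyond the 3′ end over Trp53inp2, an autophagy gene whose TSS the second one covered, and their full width counts toward the 18.6 kb. The window around the first TSS (chr2:155299611-155299780, minus strand) is printed because its gap was as dense in CpG as that of Wdr5. Its capitals mark, in the 150 bases before the TSS, the E-box CACGTG and then 1 match to the GC box on the opposite strand.
Ncoa6: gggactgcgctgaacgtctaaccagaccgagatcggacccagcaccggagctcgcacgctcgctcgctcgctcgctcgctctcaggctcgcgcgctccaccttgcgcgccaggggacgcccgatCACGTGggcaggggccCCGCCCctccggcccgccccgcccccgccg

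The only Ncoa6 TSS that RefSeq gives here, at 155266519, is an internal one, with a region 1882 bp upstream and none near it downstream. The CpG ratio was 0.976 at the first GENCODE TSS and 0.0703 at this internal one.

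Setd7, the monomethyltransferase outside the complexes, had a flanked promoter followed by a wide intronic region. The gene (ENSMUSG00000037111.8) occupies chr3:51319241-51364800, minus strand, and its 3 regions held 11.2 kb. The first TSS, at 51364800, lay in an uncovered gap of 2400 bp. The upstream edge of the gap was the region chr3:51365601-51366200, of 600 bp and 801 bp from the TSS, over an exon of the lincRNA 5031434O11Rik, whose TSS was 193 bp away. The downstream edge, 1600 bp from the TSS, was the start of chr3:51354601-51363200, which ran for 8600 bp within an intron of Setd7. The TSS closest to this region was that of 5031434O11Rik, 479 bp away, and when regions were given to the gene with the closest TSS, Setd7 kept 1 region, of 2000 bp. A width of at least 8600 bp was found for 3.05% of all regions. The third region, chr3:51321001-51323000 of 2000 bp, lay over the 3′ UTR. The TSS at 51340518 had no region within 2 kb. The TSS that RefSeq gives lies 55 bp downstream of the first GENCODE one, within the same gap.

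Kdm6b, the H3K27me3 demethylase, was covered along much of its length. The gene (ENSMUSG00000018476.7) occupies chr11:69212010-69227177, minus strand, and 68.4% of it was covered, the highest share among the 9 genes. Its 5 regions held 17.2 kb. The first TSS, at 69227177, was covered by chr11:69218201-69228400, which was 10200 bp wide and reached 1223 bp upstream and 8976 bp downstream. This was the only region above 10 kb at the 9 genes, and 2.01% of all regions were at least as wide. A region of 3600 bp, chr11:69230601-69234200, lay 3424 bp upstream of the TSS. The region chr11:69214401-69215800, of 1400 bp, overlapped coding sequence of Kdm6b and covered the TSS of the noncoding transcript 1700064E03Rik. The remaining regions were chr11:69210201-69211600, of 1400 bp over Tmem88, and chr11:69203401-69204000, of 600 bp. The second TSS of Kdm6b, that of a processed transcript at 69217717, was flanked by regions 484 bp upstream and 1917 bp downstream. The CpG ratio at the first annotated TSS was 0.216, the lowest of the 4 covered ones. This annotated TSS follows a run of pyrimidines and the transcript begins with AG, as at the acceptor end of an intron, and no RefSeq entry was used here to check it. The promoter of Kdm6b may therefore lie elsewhere, and its covered TSS and CpG ratio hold for the annotated site alone. The uncovered 2200 bp upstream of the wide region, chr11:69228401-69230600, held 15.9 CpG per kb, and the stretch of the same width upstream of the covered TSS of Men1, chr19:6332201-6334400, held 5.91.

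**Figure D3:**
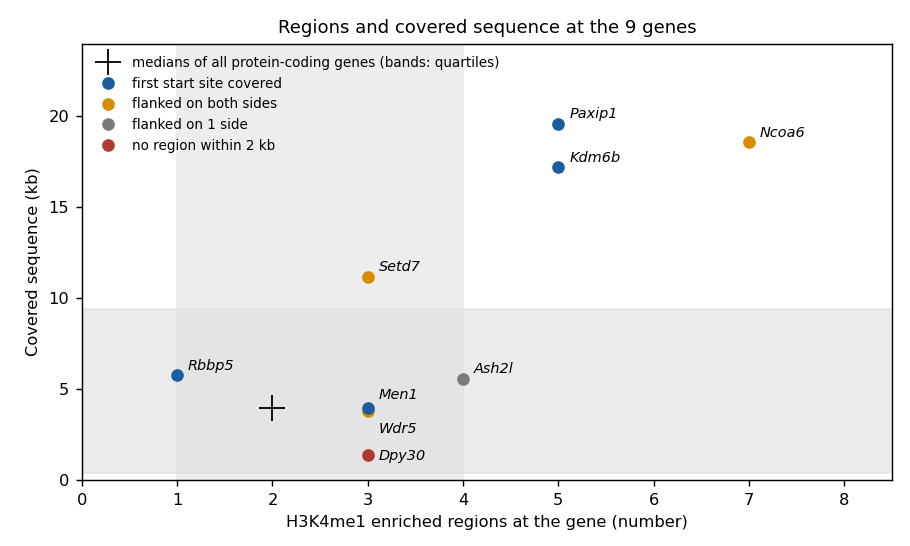
Number of enriched regions (x axis) against covered sequence in kb (y axis) for each of the 9 genes, coloured by the state of the first TSS. The cross marks the medians of protein-coding genes, 2 regions and 4 kb, and the bands their quartiles, 1 to 4 regions and 0.4 to 9.4 kb. Paxip1, Kdm6b and Ncoa6 lie above the quartile band on both axes, Setd7 above it in kb alone, and the other 5 genes within it.

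The amount of marked sequence differed widely among the 9 genes. Paxip1, Ncoa6 and Kdm6b had 19.6, 18.6 and 17.2 kb and Setd7 had 11.2 kb, and no other gene of the 9 had more than 5.8 kb. The median over the 9 genes was 3 regions and 5.8 kb, against 2 regions and 4 kb for protein-coding genes. Among protein-coding genes, Paxip1, Ncoa6, Kdm6b and Setd7 ranked at percentiles 92.1, 91.2, 89.9 and 80.1 for covered sequence. Rbbp5, Ash2l, Men1, Wdr5 and Dpy30 ranked at 60.8, 59.7, 50.3, 49.0 and 32.4. Long genes give more room for regions, and the 9 genes were longer, with a median of 28.3 kb against 15.4 kb. As a share of the gene and the sequence within 20 kb of its TSS, covered sequence was highest at Kdm6b with 34.8%, followed by Paxip1 with 27.7%, Setd7 with 17.1% and Ncoa6 with 15.9%, and lowest at Dpy30 with 2.94%. Kdm6b ranked at percentile 94.1 by this share and Ncoa6 at 74.5, so the order of the 2 turned when length was taken into account. Among the 12909 protein-coding genes of 5.913 to 83.23 kb, the range of the 9, the medians were 3 regions and 4.4 kb, and 35.4% had a covered first TSS and 11.9% a flanked one.

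The widths of the 34 regions ranged from 400 to 10200 bp with a median of 1400 bp, and the median of all regions was 1200 bp. Of the 34, 6 were at least 5 kb wide, or 17.6%, against 8.78% of all regions. They lay at Rbbp5, Paxip1 (2 of them), Setd7, Kdm6b and, over Trp53inp2, Ncoa6. Another 9 were 600 bp or narrower, or 26.5%, against 25.4% of all regions.

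Marked sequence was heavier on the downstream side of the first TSS. All 9 genes had more covered sequence in the 10 kb downstream of it than in the 10 kb upstream, against 67.2% of the 15463 protein-coding genes with any covered base in those 20 kb. The difference was largest at Setd7, with 8.401 kb downstream and 0.6 kb upstream, followed by Kdm6b with 8.977 and 4.823 kb. It was smallest at Wdr5, with 1.4 and 1 kb, and at Dpy30, with 0.4 and 0 kb. These amounts depend on the first annotated TSS, and the count was not repeated from another TSS. At Ash2l the 1.8 kb downstream were the 2 regions beside its internal TSS group, and the annotated first TSS of Kdm6b is in doubt. At the 4 genes with a covered first TSS, the region reached a median of 1383 bp upstream and 3767 bp downstream, where the medians over all protein-coding genes with a covered first TSS were 811 and 1480 bp. The downstream reach was 8976 bp at Kdm6b, from its doubtful TSS, and 1821, 3278 and 4256 bp at Men1, Paxip1 and Rbbp5.

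**Figure D4:**
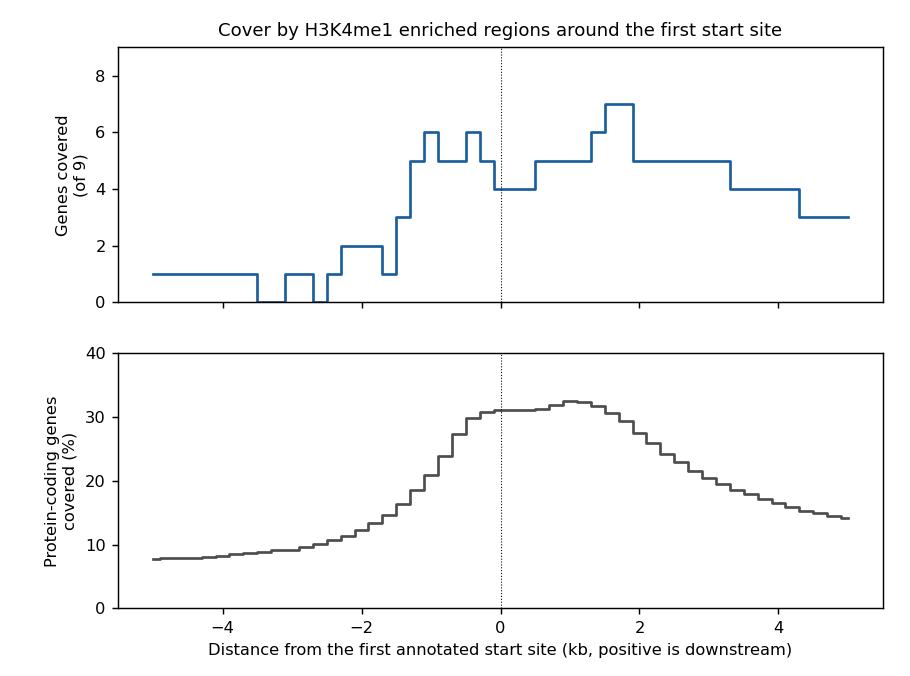
Number of the 9 genes (top) and percent of protein-coding genes (bottom) whose base at each distance from the first annotated TSS lies in an enriched region, against distance in kb. The count for the 9 genes is 4 at the TSS and 7 at 1.6 to 1.8 kb downstream, and the percent for protein-coding genes is 31.1% at the TSS and peaks at 32.5% at 1 kb downstream.

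Base by base, 6 of the 9 genes were covered 400 bp upstream of the first TSS, 4 at the TSS and 7 at 1600 bp downstream. The share of all protein-coding genes moved much less over this stretch, from 29.9% to 31.1% and 30.6%. At 5000 bp upstream and downstream, 1 and 3 of the 9 genes were covered, against 7.75% and 14.2% of protein-coding genes. The genes covered 400 bp upstream and not at the TSS were Wdr5 and Ncoa6, whose upstream regions ended 277 and 171 bp before it. Those covered at 1600 bp downstream and not at the TSS were the same 2 genes and Setd7, whose wide region began at that base.

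**Figure D5:**
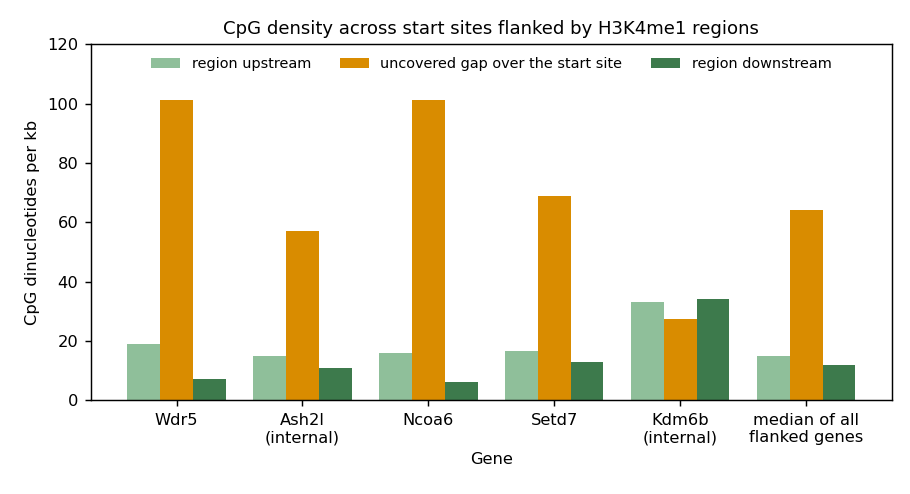
CpG dinucleotides per kb (y axis) in the uncovered gap over a TSS (orange) and in the enriched regions just upstream (light green) and downstream (dark green), for the flanked TSS of 5 of the 9 genes and as medians of all protein-coding genes with a flanked first TSS. The gap holds 57.2 to 101 CpG per kb at Wdr5, Ash2l, Ncoa6 and Setd7 and no more than 19 in either neighbouring region, whereas Kdm6b shows no such contrast.

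The flanked promoters shared a base composition that the choice of genes did not use. The gaps at Wdr5 and Ncoa6 each held 101 CpG per kb, with 19 and 16 in the upstream region and 7.14 and 5.95 in the downstream region. In the gap of Setd7 there were 68.8 CpG per kb, with 16.7 and 12.9 in its neighbours, and in the internal gap of Ash2l 57.2, with 15 and 10.8. This is the arrangement of flanked promoters in general, since the gap was denser in CpG than both neighbouring regions at 95.7% of the 2213 protein-coding genes with a flanked first TSS, with medians of 64.2, 15 and 11.8 CpG per kb. The internal TSS of Kdm6b went the other way, with 27.5 CpG per kb in the gap against 33.0 and 34.3 beside it.

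CpG content did not separate covered from flanked promoters among the 9 genes. The ratio was 1.07, 0.976 and 0.705 at the flanked Wdr5, Ncoa6 and Setd7, and 1.06, 0.900, 0.570 and 0.216 at the covered Paxip1, Rbbp5, Men1 and Kdm6b, so the 2 groups overlapped. Over all protein-coding genes, a ratio of at least 0.6 was found at 92.9% of flanked first TSS, 70.6% of covered ones, 67.7% of those flanked on 1 side and 14.5% of those with no region within 2 kb. Among the 10986 protein-coding genes with such a ratio, 44.7% had a covered first TSS, 18.7% a flanked one and 12.2% no region within 2 kb. The first GENCODE TSS of Dpy30 and the first TSS of Ash2l were poor in CpG. Among the 11364 protein-coding genes with a ratio below 0.6, 18.0% had a covered first TSS, 1.38% a flanked one and 69.4% no region within 2 kb, and Men1 and Kdm6b were among the covered ones.

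Short sequence motifs were counted before the first TSS of the 9 genes. In the 150 bases before the first TSS, read on both strands, the GC box GGGCGG was present at Wdr5, Men1, Paxip1 and Ncoa6, and at 35.5% of protein-coding promoters. CCAAT was present at Ash2l and Men1, against 26.1%, and the E-box CACGTG at Ncoa6 alone, against 4.62%. The ETS core CCGGAAG was present at 0 of the 9, against 6.78%, and TATAAA at 0, against 7.87%. A match to the consensus of NF-κB, a transcription factor that acts downstream of IL-1β and TNFα, was present at Kdm6b, against 5.17%, before the annotated TSS that resembles a splice acceptor. Within the 34 regions there were 20 NF-κB matches, or 0.229 per kb, against 0.212 per kb in all regions.

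Of the 20 NF-κB matches, 7 lay in the wide region over the first annotated Kdm6b TSS, which is 0.686 per kb of that region and 0.407 per kb of all 5 Kdm6b regions. The wide region had a GC content of 57.9% against 46.6% over all regions, the consensus is itself rich in G and C, and the part of base composition in the density was not tested. Men1 had 4, of which 2 overlapped on opposite strands, Ncoa6 4, Paxip1 3 and Wdr5 and Ash2l 1 each, and Rbbp5, Dpy30 and Setd7 had 0. Many of these lay over neighbouring genes, since all 4 of Ncoa6 were in the regions over Trp53inp2, the 1 of Ash2l was in the region over Star and 3 of the 4 of Men1 were in the region over the Map4k2 TSS. A match says only that these letters are present. The match nearest to the first annotated Kdm6b TSS, at chr11:69227204-69227213 on the plus strand, and one 2774 bp downstream of that TSS, at chr11:69224394-69224403 on the minus strand, are shown with 10 bases on each side and the match in capitals. They are 2 examples of the 7, picked after the matches were seen.
Kdm6b upstream: agttagagatGGGATCTCCCaagatagagg
Kdm6b downstream: ggagaccgagGGGAAATTCCgcgggacccg

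The TSS of other genes of the pathway were classed in the same way. The methyltransferases Mll2 and Mll4 were not among these genes. Of 10 related genes, the methyltransferases Mll1, Mll3, Setd1a and Setd1b, the demethylase Kdm6a and the complex or partner genes Hcfc1, Cxxc1, Wdr82, Psip1 and Ogt, none had a covered first TSS and 5 (Mll1, Mll3, Setd1a, Setd1b and Wdr82) had a flanked one, beside 31.1% and 9.90% of protein-coding genes. Setd1a had a covered internal TSS, and it was the only one of the 10 with any TSS covered. Kdm6a, Hcfc1, Cxxc1 and Psip1 were flanked on 1 side and Ogt had no region within 2 kb of its first TSS. All 10 had at least 1 region, from 1 at Hcfc1 and at Ogt to 18 at Mll3, with medians of 2.5 regions and 7.1 kb. Kdm6a, Hcfc1 and Ogt lie on chromosome X, where 47 of 932 protein-coding genes had a covered TSS, or 5.04% (95% exact binomial interval 3.73% to 6.65%, counting error only), against 40.6% on the autosomes. All 9 genes described above lie on autosomes.

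The 23 Polycomb genes belong to the complexes that place and read the mark Kdm6b removes. A first TSS was covered at 7 of them, flanked on both sides at 3, flanked on 1 side at 8 and without a region within 2 kb at 5. The shares of protein-coding genes in these classes were 31.1%, 9.90%, 17.7% and 41.2%, so the covered count of the Polycomb genes was close to the background. Any TSS was covered at 9 of the 23. The medians were 3 regions and 8.2 kb, and 22 of the 23 had a region, the exception being Rbbp7 on chromosome X. The counts of the 9 genes, the 10 related genes and the Polycomb genes were set side by side and no difference between them was tested.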

How the data were processed

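Chromatin of cytokine treated islets was immunoprecipitated with anti-H3K4me1 and sequenced as 1 library of pooled DNA. Per the submitters' processing notes reads were aligned with Bowtie2 (2.2.1), to mm9, and the authors called enriched regions with ChromHMM, whose version and settings are not given in the sources used here. The deposited list holds positions alone, with no count or score. The depth is therefore unknown, and an absent region may reflect low depth or the calling threshold. Whether the list precedes the study's merging and filter on low enrichment is not stated.

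With 1 added to each start, regions were assigned to genes of GENCODE M1. Percentiles rank a gene among protein-coding genes, with ties split evenly. Exact binomial intervals (95%) cover counting error alone. The genes and lists were chosen with earlier results of these data known. The text names all 9 genes, the genes their regions overlap, related genes with no covered TSS or the most or fewest regions, and Polycomb genes with no region. Setd1a falls outside this rule and was named after its value was seen. RefSeq promoters (GRCm38.p6) were matched to mm9 by sequence for 7 of the 9 genes. RefSeq TSS, CpG content, genes of like length and the NF-κB motif were added after the data were seen. Scripts (Python 3.11.15, numpy 2.4.6, scipy 1.17.1, matplotlib 3.10.9) were tested on simulated data. A search for 1 other motif is not reported here.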

Additional observations from a re-analysis of the deposited data

How the results depend on the processing

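No paired analysis was possible because only 1 library was analysed, no library could be left out, and without scores no stricter calling threshold could be tried. Of 57 values under 13 alternatives, 45 stayed within 1.5 times the main value, or within the interval for the share of genes, and 12 moved. The 12 TSS flanked on both sides became 5 when regions narrower than 1000 bp were left out and 5 under a flank of 1 kb. Without the narrow regions Setd7 kept the downstream region alone, Ash2l had none within 2 kb of its first TSS and Dpy30 had 0 regions. Merging regions over gaps of up to 1000 bp covered the first TSS of Wdr5, and lengthening them by 200 bp at each end covered that of Ncoa6. Rbbp5, Dpy30, Men1, Paxip1 and Kdm6b stayed in the same class under 6 alternatives to the regions or TSS. The share of protein-coding genes with a covered TSS was 35.7% without the narrow regions, 40.3% merged, 34.5% shortened by 200 bp, 43.1% lengthened by 200 bp and 36.2% with TSS of coding transcripts alone. Counting regions within 50 kb gave 69 regions, a median of 7 per gene and 19.6 kb. Counting those whose closest TSS was that of the gene, within 100 kb, gave 22 regions and a median of 2.8 kb. With RefSeq TSS, an alternative chosen after seeing the data, 3 of the 7 matched genes had a covered first TSS. The cause of these changes was not tested beyond how each alternative is built.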
